A study of Caenorhabditis elegans with 18 samples.

Results

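The nhr genes of Caenorhabditis elegans encode nuclear hormone receptors, transcription factors that bind DNA through a pair of zinc fingers and can carry a pocket for a small lipid-like ligand. Members were taken from the table of protein-coding genes as the rows whose accession begins with nhr-, which gave 268 of 20191 rows. Of these, 267 were receptors. The remaining row was gei-3, whose accession cell repeats that of nhr-27; gei-3 overlaps nhr-27 on the same strand of chromosome X and is not itself a nuclear receptor. A second table counted reads in introns. It gave 1500 intervals assigned to 1 member alone, in 256 members, among 106818 intervals in all, and 99 more that a member shared with another gene; 12 members had no interval of their own.

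The libraries came from whole young adult hermaphrodites collected before they formed embryos, all of 1 strain that carried mog-7::degron::gfp and sun-1p::TIR1::mRuby. MOG-7 is a protein of pre-mRNA splicing. TIR1 is a plant F-box protein that marks degron-tagged proteins for destruction when auxin is present, and the sun-1 promoter drives it in the germ line. Worms were given ethanol for 2 h as the control, auxin for 1 h or auxin for 2 h, with 6 libraries a group; each of the 6 batches (I, II, V, VII, VIII and X) supplied 1 library to every group. The control for the 1 h group was thus exposed for 2 h. Every group carried the degron and TIR1, and worms given auxin without them were not analysed here, so the action of auxin itself and the loss of MOG-7 cannot be told apart. The degron acts on the protein, so the mog-7 transcript does not check the depletion.

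Nuclear receptors usually work by binding short DNA elements near target genes and recruiting coactivators such as the Mediator subunit MDT-15 or corepressors, with the ligand, where there is one, shifting the balance between them. C. elegans has a greatly enlarged family that arose largely from an ancestor related to vertebrate HNF4, and most members have no known ligand. Those that have been studied act mainly in the intestine and hypodermis on fat storage, vitamin-dependent metabolism, detoxification and moulting. A few act in gonad and embryo development.

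The libraries held 18153020 to 30747645 reads in genes and 186471 to 885408 reads in introns. Levels are given as CPM, counts scaled to the TMM-adjusted library size, and gene differences were tested with edgeR's quasi-likelihood test over 13969 genes. Features with a Benjamini-Hochberg adjusted p under 0.05 are described as called. Of the 15 germline markers examined, 7 fell and none rose at 2 h, beside 20.1% lower and 14.5% higher among all genes. Their summed levels were 5233 to 6577 CPM in 2 h auxin worms and 6623 to 8028 CPM in ethanol worms. After 1 h, 2 of the 15 fell and 1 rose, beside 6.93% lower and 3.62% higher among all genes. Intestinal markers summed to 5513 to 6357 CPM at 2 h and 4794 to 5805 CPM in ethanol worms, with 2 of 10 risen. With the batch block, described below, 9 germline markers fell and all 10 intestinal ones rose at 2 h. In that fit 56.8% of all genes were called in either direction. Muscle markers rose in 3 of 5 cases (4835 to 6357 CPM at 2 h and 4295 to 5327 CPM in ethanol worms) and neuronal ones in 4 of 7, with 1 lower (131 to 144 CPM at 2 h and 113.7 to 138 CPM in ethanol worms). Of the other markers, 1 of 7 rose in hypodermis and 1 of 4 in somatic gonad, and none fell. In whole worms, fewer cells of a type and less RNA per cell cannot be told apart. The part of these shifts in the values below was not tested.

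A few receptors held much of the family's signal. nhr-114, an HNF4-related receptor that protects the germ line in a diet-dependent way, had the highest level per length, 273 CPM per kilobase over all libraries. Next came nhr-49 at 59.95 CPM per kilobase, the fat-metabolism receptor, followed by nhr-97 at 52.7 and nhr-68 at 45.4 CPM per kilobase. The other members above 20 CPM per kilobase were nhr-31 (31.7 CPM per kilobase), gei-3 (24.5 CPM per kilobase), nhr-66 (24.3 CPM per kilobase), nhr-23 (21.2 CPM per kilobase) and nhr-86 (20.5 CPM per kilobase). Most members were far lower. Only 22 of the 268 lay above 10 CPM per kilobase, 118 lay below 1 CPM per kilobase, and 9 had no read in any library. The filter on low counts left 181 members to test, of which 168 passed the minimum in all 6 ethanol libraries, and 87 were not tested.

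Chromosome V carried 165 of the 268 members, or 61.6%, against 24.8% of all genes in the table. It also carried 113 of the 181 members tested. Summed over the family, nhr genes took 0.223 ± 0.00966% of gene reads with ethanol, 0.224 ± 0.00423% at 1 h and 0.234 ± 0.00653% at 2 h (SD, n = 6 each). nhr-114 alone supplied 17.9% of the family's reads with ethanol, 17.6% at 1 h and 19.7% at 2 h.

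**Figure D1:**
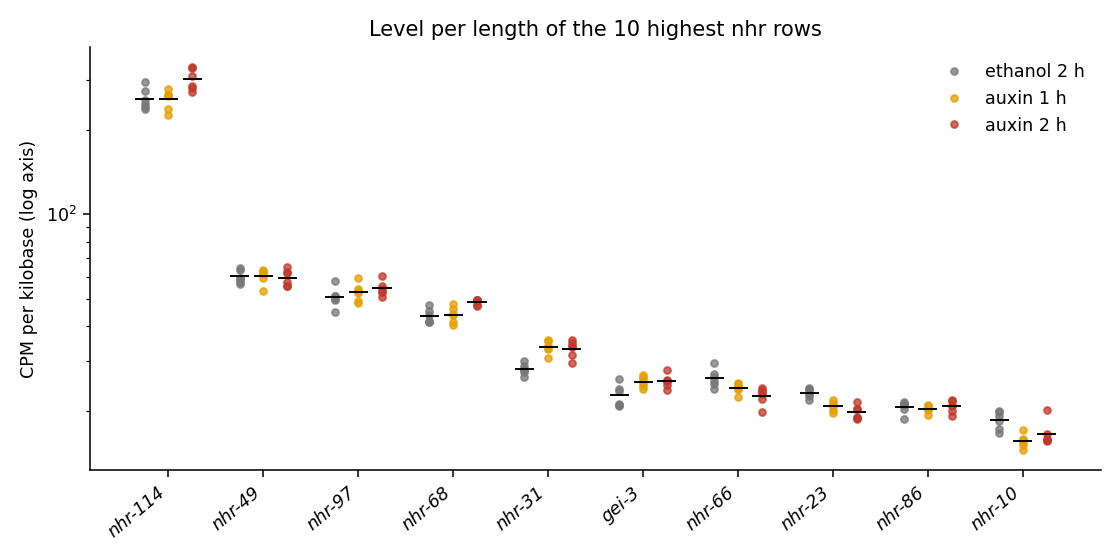
Level of the nhr genes with the highest level per length, in CPM per kilobase on a log axis, for ethanol, auxin 1 h and auxin 2 h; each point is 1 library and each bar the mean of 6. nhr-114 lies at about 273 CPM per kilobase over all libraries, well above nhr-49 at 59.95.

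After 2 h of auxin more nhr genes rose than fell. Of the 181 tested, 35 rose and 8 fell relative to ethanol, while among all 13969 genes 14.5% rose and 20.1% fell. Called members made up 23.8% of those tested, below the 34.6% called among all genes. The rises were small, with log2 fold changes of 0.16 to 0.69. In 30 of the 35 risen members the 2 h library exceeded the ethanol library of its batch in all 6 batches. That is 85.7%, beside 87.7% of all genes called higher. In 6 of the 35 the groups did not overlap, or 17.1%, beside 28.4% of all genes called higher. Those 6 are 3.31% of the members tested, beside 4.20% of all genes. The falls ran from -1.03 to -0.22 and 4 of the 8 had groups that did not overlap, or 2.21% of the members tested, beside 9.41% of all genes. The median log2 fold change was 0.18 over the tested members and 0.07 over all genes. With the batch as a block, 68 members rose and 15 fell, against 56.8% of all genes called in that fit, and all 43 calls stayed in the same direction. Without TMM scaling, 19 rose and 12 fell, beside 4575 of all 13969 genes called in either direction. Without batch I, 25 members were called in all. The shares of all genes called in fits without a batch are not given here.

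Called members were found at all levels. Among the 22 members above 10 CPM per kilobase, 10 rose and 2 fell at 2 h, beside 17% and 28.6% of all 7247 genes tested at that level. Their median log2 fold change was 0.16, against -0.01 for all genes at that level. Among the 128 between 1 and 10 CPM per kilobase, 23 rose and 5 fell, beside 13.9% and 12.2% of the 5205 genes at that level. There the medians were close, at 0.18 for the members and 0.15 for all genes. Of the 31 below 1 CPM per kilobase, 2 rose and 1 fell, beside 5.08% and 6.46% of 1517 genes, with medians of 0.24 for the members and 0.15 for all genes. On chromosome V, 19 of 113 members rose and 3 fell, with a median log2 fold change of 0.20, while over all 2649 genes tested there the median was 0.13, and 17.5% rose and 14.3% fell. On chromosome X, 5 of 18 members rose and 1 fell, beside 22.2% and 11.6% of all 1971 genes tested there.

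**Figure D2:**
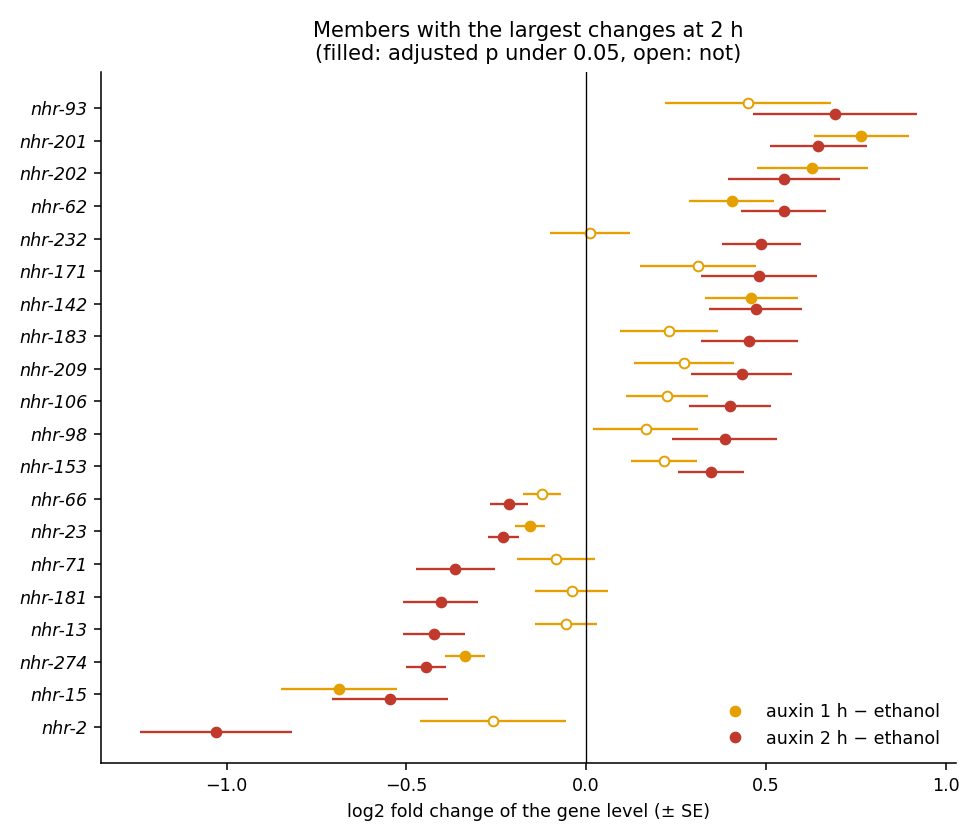
Log2 fold change over ethanol (with its standard error) of the named nhr genes at auxin 1 h and auxin 2 h, with filled symbols for an adjusted p under 0.05. nhr-2 has the deepest fall, -1.03 at 2 h, and nhr-201 lies well above 0 at both times.

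nhr-2, a receptor of the early embryo, showed the deepest fall. Its level was 1.76, 3.79 and 4.62 CPM (lowest, median and highest library) after 2 h of auxin, against 5.29, 7.87 and 8.44 CPM with ethanol. Every 2 h library lay below every ethanol library, with a log2 fold change of -1.03 (SE 0.21, adjusted p = 0.000957). After 1 h the level was 3.12, 6.71 and 7.91 CPM, which overlapped ethanol; the log2 fold change of -0.26 had an adjusted p of 0.486, or 0.0196 with the batch block. The 2 h libraries were also lower than the 1 h libraries, by a log2 fold change of -0.77 (adjusted p = 0.0343). That last call was lost without any 1 of batches I, II, V, VII or VIII, with an adjusted p of up to 0.152. The gene rests on 40 to 241 reads per library.

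Receptors tied to moulting and to fat were among the others that fell at 2 h. nhr-23, an ROR-like receptor of the moulting cycle and of spermatogenesis, had 57.1, 60.1 and 66 CPM at 2 h and 66.9, 71.4 and 74 CPM with ethanol. The groups did not overlap, with a log2 fold change of -0.23 (SE 0.04, adjusted p = 0.000344). nhr-13 and nhr-66 encode partners of NHR-49. nhr-13 had 7.10, 8.18 and 9.79 CPM at 2 h against 9.26, 11.4 and 12.7 CPM with ethanol, and was lower in the 2 h library of every batch (log2 fold change -0.42, SE 0.09, adjusted p = 0.000949). nhr-66 had 58.3, 67.9 and 70.7 CPM at 2 h against 70.6, 76.4 and 86.9 CPM with ethanol. Those groups touched at their edges, with a log2 fold change of -0.22 (SE 0.05, adjusted p = 0.00384). nhr-66 overlaps serp-1.2 on the opposite strand.

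Of the other receptors that fell, nhr-274 did so at both times: its libraries held 14, 15.1 and 17.1 CPM at 2 h, against 20.3, 21.0 and 21.9 CPM with ethanol. Neither auxin group overlapped ethanol, with a log2 fold change at 1 h of -0.34 (SE 0.05, adjusted p = 0.000304) and one at 2 h of -0.45 (SE 0.06, adjusted p = 4.93e-06). nhr-15 had 1.03, 1.22 and 1.38 CPM at 1 h against 1.43, 1.88 and 2.73 CPM with ethanol, with no overlap (log2 fold change -0.69, adjusted p = 0.00803). At 2 h nhr-15 overlapped ethanol and its log2 fold change was -0.55 (adjusted p = 0.013); a small nucleolar RNA gene overlaps nhr-15 on the same strand. nhr-181 fell by 0.40 on the log2 scale at 2 h without overlap (adjusted p = 0.00516). nhr-71 fell by 0.36 (adjusted p = 0.0143), a call lost without batch I or VIII, with an adjusted p of up to 0.0572.

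Most of the largest rises at 2 h were in receptors with no assigned role and low levels. nhr-201 on chromosome V had 1.43, 1.54 and 1.72 CPM with ethanol, 2.07, 2.61 and 3.38 CPM at 1 h and 2.16, 2.29 and 2.90 CPM at 2 h. Both auxin groups lay wholly above ethanol, with a log2 fold change at 1 h of 0.77 (SE 0.13, adjusted p = 0.000559) and one at 2 h of 0.64 (SE 0.13, adjusted p = 0.00107). Its neighbour nhr-202, which overlaps it on the same strand, also rose, by 0.63 at 1 h and 0.55 at 2 h on the log2 scale; without batch I both calls were lost (adjusted p = 0.0808 for the shorter exposure and 0.0651 for the longer). nhr-93 had the largest fold at 2 h, with 0.889, 1.23 and 1.59 CPM against 0.485, 0.673 and 1.05 CPM in ethanol worms; its groups overlapped, and the log2 fold change of 0.69 (SE 0.23, adjusted p = 0.0243) was lost as a call without batch VII or X.

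Among the other large rises at 2 h, nhr-232 had a log2 fold change of 0.49 (adjusted p = 0.00199); it overlaps sri-18 on the opposite strand. nhr-142 rose by 0.47 and nhr-106 by 0.40 on the log2 scale, with adjusted p of 0.0083 and 0.0101. nhr-153 had a log2 fold change of 0.35 (adjusted p = 0.00636). The calls of nhr-171, nhr-183, nhr-209 and nhr-98 (log2 fold changes of 0.39 to 0.48) were each lost on leaving out at least 1 batch.

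nhr-201 lies in a dense run of the family. Within 50 kb of it on chromosome V, in a window placed there because of its rise and so no support for one, 12 members were found and all were tested. Their log2 fold changes at 2 h ran from 0.03 to 0.64, nhr-201 and nhr-202 included, where 74% of the 181 members tested were positive. Of the 12, 5 were called higher, beside 14.5% of all genes. With the batch block 9 were called higher. In that fit 37.6% of the members tested were higher, and 56.8% of all genes were called in either direction. The rule by which reads of near-identical genes were counted is not given in the sources used here, so values of neighbouring receptors may share reads.

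At 1 h, 10 of the 181 tested members rose and 6 fell relative to ethanol, or 8.84% in all, beside 10.6% of all genes (3.62% higher and 6.93% lower). The median log2 fold change was 0.05 in members. With the batch block 24 rose and 13 fell, against 30.7% of all genes called in that fit. Without batch I, 7 members were called. Of the 16 members called at 1 h, 12 were also called at 2 h, which is 75% of the 1 h calls and 27.9% of the 2 h calls; the 2 comparisons share the ethanol libraries.

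nhr-31, a receptor of the excretory canal, was the most abundant member to rise at 1 h. It had 74.9, 82.1 and 86.6 CPM at 1 h and 64.0, 68.1 and 72.9 CPM with ethanol, with no overlap and a log2 fold change of 0.26 (SE 0.05, adjusted p = 0.000922). At 2 h it stood at 72.0, 82.5 and 86.7 CPM, a log2 fold change over ethanol of 0.25 (adjusted p = 0.000633). nhr-1 fell at 1 h: it had 38.5, 41.9 and 51.2 CPM at 1 h and 49.6, 52.7 and 56.7 CPM with ethanol, so that the groups overlapped slightly, with a log2 fold change of -0.28 (SE 0.06, adjusted p = 0.00629). At 2 h nhr-1 lay at 45.8, 53.8 and 55.6 CPM. The 2 h libraries were higher than the 1 h libraries by a log2 fold change of 0.28 (adjusted p = 0.0128), a call lost without batch I, II or V.

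nhr-227 had the largest fold at 1 h, 0.92 on the log2 scale (SE 0.22, adjusted p = 0.0123), but it rests on 4 to 16 reads per library and the call was lost without batch I or VII and with DESeq2. nhr-135 rose by 0.28 on the log2 scale (adjusted p = 0.0149), a call lost without batch I, II or VII. nhr-62 rose by 0.40 at 1 h (adjusted p = 0.0305), a call lost without batch I, II, V, VIII or X, and nhr-142 rose by 0.46 (adjusted p = 0.0246), a call lost without batch I, V or VIII. nhr-23 already fell at 1 h, by 0.16 on the log2 scale (adjusted p = 0.0191, lost without batch I, II, VIII or X). nhr-46 had a log2 fold change of -0.21 at 1 h (adjusted p = 0.0196, lost without batch V, VII, VIII or X).

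Between the auxin times, 8 members were higher and 4 lower at 2 h than at 1 h, or 6.63% of those tested, beside 6.89% of all genes (2.94% higher and 3.95% lower). With the batch block 25 were higher and 10 lower, where 32.7% of all genes were called. The count fell to 3 without batch I or VII and to 5 without batch V or VIII. nhr-45, a receptor of mitochondrial stress surveillance, had 22.0, 22.9 and 25.8 CPM at 2 h and 17, 19 and 21 CPM at 1 h, without overlap (log2 fold change 0.30, SE 0.06, adjusted p = 0.0049). nhr-7 had 10.1, 11.6 and 12.5 CPM at 2 h and 7.57, 8.79 and 8.91 CPM at 1 h, also without overlap (log2 fold change 0.44, SE 0.08, adjusted p = 0.00291). nhr-57, a hypoxia-responsive gene, was higher at 2 h than at 1 h by 0.49 (adjusted p = 0.0131), a call lost without batch I, VII or VIII; lgc-1 overlaps nhr-57 on the same strand. nhr-232 was higher at 2 h than at 1 h by 0.48 (adjusted p = 0.0119, lost without batch I, VII or X), and nhr-18 by 0.33 (adjusted p = 0.0397, lost without batch I, V, VII, VIII or X). nhr-13 was lower by a log2 fold change of -0.37 (adjusted p = 0.0149, lost without batch V, VII or VIII), and nhr-181 by -0.36 (adjusted p = 0.0383, lost without batch I, II, V, VII or VIII). nhr-168 was lower at 2 h than at 1 h without overlap, by a log2 fold change of -0.51 (adjusted p = 0.0193, lost without batch I, V or VII).

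**Figure D3:**
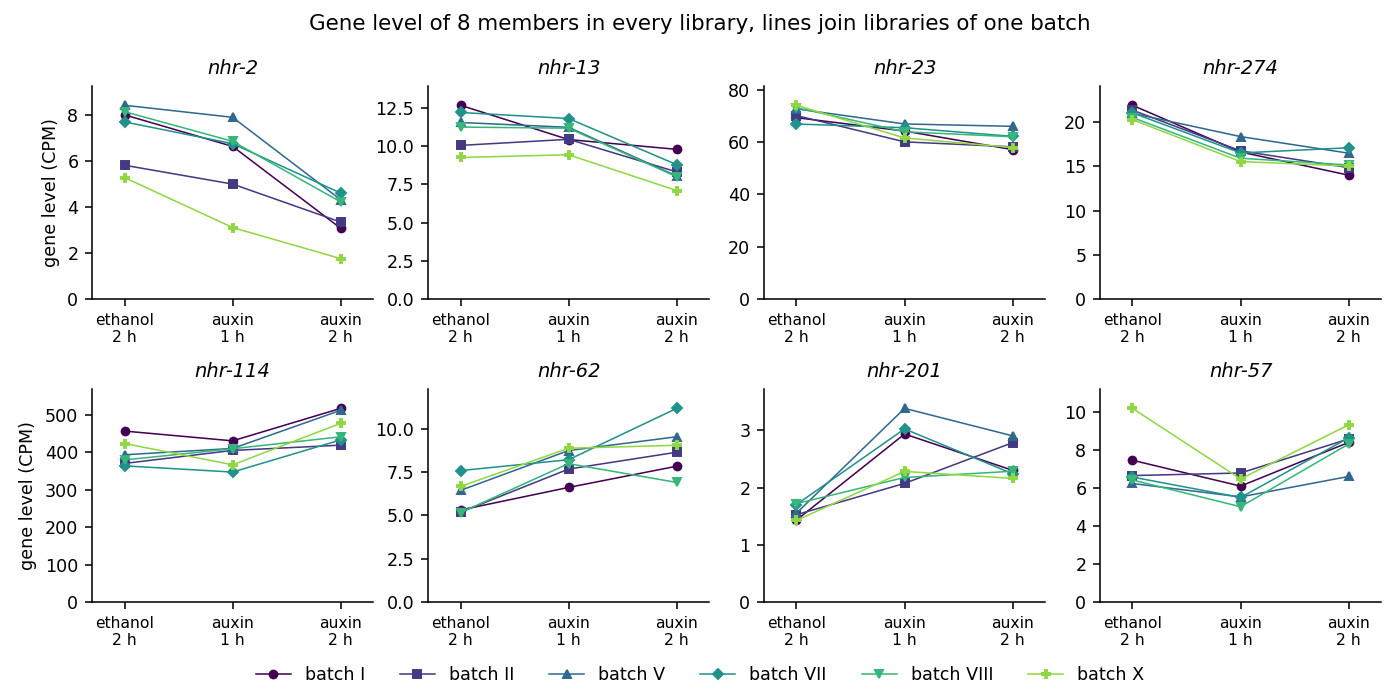
CPM of nhr genes that carry the comparisons, with a line for each of the 6 batches across ethanol, auxin 1 h and auxin 2 h. In nhr-2 the 2 h libraries, at most 4.62 CPM, all lie below the ethanol libraries, which begin at 5.29 CPM. In nhr-201 the libraries of both auxin groups lie above the ethanol libraries.

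By role, receptors of fat and fasting went both ways. Of 6, nhr-62 and nhr-80 rose at 2 h, while nhr-66 and nhr-13 fell, beside 14.5% higher and 20.1% lower among all genes. nhr-62 is needed for the response to dietary restriction, and nhr-80 encodes a partner of NHR-49 in fatty acid desaturation. nhr-62 had 6.90, 8.84 and 11.2 CPM at 2 h and 5.16, 5.87 and 7.58 CPM with ethanol, overlapping only at the edge (log2 fold change 0.55, SE 0.12, adjusted p = 0.00136). nhr-80 had 14.2, 16.4 and 18.6 CPM at 2 h and 11.8, 13.9 and 16.4 CPM with ethanol (log2 fold change 0.22, adjusted p = 0.0262), a call lost without batch I, V or VIII and without TMM scaling. nhr-49, which drives desaturation and beta-oxidation, had 121, 130 and 141 CPM at 2 h and 123, 129 and 140 CPM with ethanol. The 2 groups covered nearly the same range, with a log2 fold change of -0.01 (SE 0.05, adjusted p = 0.858). nhr-76, which acts in serotonin-driven fat loss, had a log2 fold change of 0.09 (adjusted p = 0.428).

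Of the 4 receptors of nutrients and metals found (nhr-33, also listed, was not matched by name), 3 were called higher at 2 h, each call being lost on leaving out at least 1 batch, beside 14.5% of all genes. nhr-114, which controls the methionine cycle, had 419, 459 and 517 CPM at 2 h, against 363, 386 and 456 CPM with ethanol. It was higher in the 2 h library of all 6 batches although the groups overlapped, with a log2 fold change of 0.23 (SE 0.07, adjusted p = 0.0125, but 0.0605 without batch V). At 1 h nhr-114 had 347, 407 and 430 CPM, with a log2 fold change of -0.01 (adjusted p = 0.96). nhr-68, which with nhr-10 switches on the propionate shunt when vitamin B12 is low, had 64.8, 67.6 and 67.9 CPM at 2 h and 56.6, 58.6 and 65.3 CPM with ethanol (log2 fold change 0.16, adjusted p = 0.00897). That call was lost without batch VIII, at 0.0501, and without TMM scaling. nhr-14, a regulator of iron uptake, rose by 0.18 (adjusted p = 0.0433), a call lost without batch I, II, VII or VIII. nhr-10 fell at 1 h, with 22.2, 24.0 and 26.3 CPM against 25.7, 28.9 and 30.7 CPM with ethanol (log2 fold change -0.25, adjusted p = 0.0163, lost without batch I, VII or VIII). At 2 h its log2 fold change was -0.16 (adjusted p = 0.0624, or 0.00303 with the block).

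Of the 5 receptors of toxins, pathogens and hypoxia, nhr-8, nhr-45 and nhr-176 rose at 2 h, beside 14.5% of all genes; the calls of nhr-8 and nhr-176 depended on single batches. nhr-8, which acts in xenobiotic resistance and cholesterol balance, had 29.1, 34.2 and 38.3 CPM at 2 h and 27.3, 28.9 and 31.8 CPM with ethanol, with partial overlap (log2 fold change 0.22, SE 0.06, adjusted p = 0.00759, but 0.0648 without batch I). F33D4.6 overlaps nhr-8 on the opposite strand. nhr-45 lay above ethanol without overlap at 2 h (log2 fold change 0.25, adjusted p = 0.00267). nhr-176, which switches on cyp-35D1 in response to the drug thiabendazole, had a log2 fold change of 0.32 (adjusted p = 0.0323), lost without batch I, II or V and without TMM scaling. nhr-86, which senses a bacterial phenazine, had 26.9, 29.3 and 30.5 CPM at 2 h and 26.1, 29.5 and 30.2 CPM with ethanol. Its groups overlapped almost wholly, with a log2 fold change of 0.01 (SE 0.05, adjusted p = 0.917).

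Of 13 receptors of development, 12 were tested. nhr-69, an HNF4-like receptor, rose at 2 h, and nhr-23 and nhr-2 fell, beside 14.5% higher and 20.1% lower among all genes. nhr-69 had 15.4, 16.4 and 16.5 CPM at 2 h and 13, 13.6 and 14.7 CPM with ethanol, without overlap (log2 fold change 0.24, SE 0.05, adjusted p = 0.00091); inx-20 overlaps it on the opposite strand. nhr-25, the Ftz-F1-like receptor of moulting, had a log2 fold change of -0.03 at 2 h. nhr-6, an NR4A receptor of the spermatheca, had -0.21 and nhr-67, a tailless-like receptor of the anchor cell, had 0.22, and none of the 3 was called. nhr-85, a Rev-erb-like receptor of larval timing, had 0.25 (adjusted p = 0.131) and nhr-91 had 0.27 (adjusted p = 0.0509), and both were called with the block, with adjusted p of 0.0291 and 0.0161. nhr-40, which acts in muscle development and overlaps T03G6.7 on the same strand, had 0.04, nhr-41 had 0.17, nhr-60 had 0.40 and nhr-48 had -0.08 at 2 h, all uncalled. nhr-111 had at most 1 read in any library and was not tested.

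Genes around the family gave mixed counts. Of the nuclear receptors with other names, 4 were tested. hizr-1, the zinc receptor, rose at 2 h (log2 fold change 0.29, adjusted p = 0.005). sex-1, which reads X chromosome dose, fell (-0.43, adjusted p = 0.005). Among all genes 14.5% rose and 20.1% fell at 2 h. daf-12, the dafachronic acid receptor, had 0.15 (adjusted p = 0.079, or 0.008 with the batch block). Of the enzymes that make its ligand, daf-36 rose by 0.35 on the log2 scale and daf-9 was not called. None of the 4 coregulators mdt-15, cbp-1, gei-8 and din-1 was called. With the block cbp-1 and din-1 were called, where 56.8% of all genes were called at 2 h.

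Known targets of the receptors were read against 34.6% of all genes called at 2 h and 10.6% at 1 h. Counts with the block were read against 56.8% of all genes called at 2 h and 30.7% at 1 h. Of 6 NHR-49 targets, fmo-2 rose at 2 h (log2 fold change 1.29, adjusted p = 0.046), and 5 were higher with the block. Of 5 propionate shunt genes, acdh-1 rose at 1 h by 0.21 and alh-8 rose at 2 h by 0.20; with the block 5 rose at 1 h and 4 at 2 h. Of 6 methionine cycle genes, mel-32 rose by 0.24 and mtrr-1 by 0.18 at 1 h, while ahcy-1 rose by 0.18 and mtrr-1 fell by 0.16 at 2 h. irg-4, an immune gene downstream of NHR-86, rose at 2 h by 0.42 (adjusted p = 0.036). cyp-35D1, a target of NHR-176, rose at 1 h by 1.44 and had a log2 fold change of 0.06 at 2 h.

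Reads in introns of nhr genes were few, and where they could be tested they rose with auxin or were not called. Summed per gene, 213 of the 256 members with intervals had at least 1 intron read and 51 passed the filter, or 19.9%, beside 33.9% of all 19999 host genes. Only 15 of the 51 passed the minimum in all 6 ethanol libraries, beside 2826 of all 6771 host genes tested. Most of the 51 thus passed through their auxin counts, and the values over the 51 are a description. At 2 h, 30 of the 51 rose and none fell, which is 58.8%, beside 74.9% higher and 0.709% lower among all 6771 host genes tested. At 1 h, 17 rose and none fell, or 33.3% beside 70.1% higher and 0.65% lower among all, and all 17 were also called at 2 h. Between the auxin times 9 were higher at 2 h and none lower, or 17.6% beside 30.0% higher and 1.27% lower among all. With the batch block, 19 members were called at 1 h, 32 at 2 h and 13 between the auxin times, beside 72.6%, 77.8% and 39.0% of all host genes. The median log2 fold change over the 51 was 0.33 at 1 h and 0.70 at 2 h, against 1.52 and 1.73 over all host genes tested. With no filter the medians at 2 h lay closer, at 0.47 over 213 members and 0.81 over all 17139 host genes. Setting the 2 members with ethanol libraries all at or under 3 reads to their lower bound left the medians over the 51 at 0.33 and 0.70. A change in 2 of 51 values can move a median little, so this is no check of the fitted values. These values use the scaling of the gene table. TMM factors from the introns themselves bring the median of all host genes to 0.04 at 1 h and -0.03 at 2 h. With them 5 members were higher and 38 lower at 2 h, beside 5776 of all 6771 host genes called in either direction. The 15 germline markers tested in introns all rose at both times, and the part of tissue make-up in these values was not tested.

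nhr-86 showed the largest fitted intron rise at 2 h among members with more than 3 intron reads in at least 1 ethanol library. Its pooled introns had 0.349, 0.42 and 0.718 CPM with ethanol, 3.32, 4.01 and 4.93 CPM at 1 h and 4.28, 4.77 and 5.67 CPM at 2 h. Both auxin groups lay wholly above ethanol, with log2 fold changes of 3.08 at 1 h (SE 0.17, adjusted p = 1.52e-19) and 3.35 at 2 h (SE 0.17, adjusted p = 3.76e-21). Per 1000 reads of the gene, nhr-86 had 16.3 intron reads with ethanol, 143 at 1 h and 168 at 2 h, while its gene level was not called at either time. comt-3 overlaps nhr-86 on the opposite strand.

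Receptors whose gene counts fell were among those with large intron rises. Such falls were about as frequent among all genes with large intron rises, as set out below. nhr-23 introns had 4.10, 5.06 and 5.93 CPM at 2 h and 0.724, 1.00 and 1.16 CPM with ethanol, without overlap (log2 fold change 2.39, SE 0.16, adjusted p = 6.69e-17). nhr-66 introns had 1.31, 1.69 and 1.82 CPM at 2 h and 0.106, 0.164 and 0.265 CPM with ethanol (log2 fold change 3.23, SE 0.25, adjusted p = 4.64e-15). nhr-13 introns had 1.46, 2.08 and 2.45 CPM at 2 h and 0.224, 0.379 and 0.662 CPM with ethanol (log2 fold change 2.21, SE 0.21, adjusted p = 1.21e-12). In all of these the auxin and ethanol libraries were fully apart. nhr-2 introns had 0.309, 0.433 and 0.734 CPM at 2 h and 0, 0.0185 and 0.0882 CPM with ethanol, which is at least 3.7-fold higher at 2 h against a floor of 3 reads per ethanol library.

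The introns of nhr-12 and nhr-48 were higher at 2 h than at 1 h as well as over ethanol. nhr-12 had 0, 0.144 and 0.322 CPM with ethanol, 0.704, 0.782 and 1.27 CPM at 1 h and 0.986, 1.56 and 1.76 CPM at 2 h. Over ethanol at 2 h the log2 fold change reached 3.24 (SE 0.31, adjusted p = 1.35e-12) and 0.74 at 2 h over 1 h (adjusted p = 0.0094). nhr-48 introns rose by 1.76 at 1 h and 2.3 at 2 h on the log2 scale, and nhr-71 introns by 2.03 and 2.01.

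nhr-114 and nhr-49, which had the highest levels per length, had more intron CPM in ethanol worms and smaller log2 rises than the members above. This did not hold for abundant receptors in general. nhr-66, nhr-23 and nhr-86, also among the 10 highest per length, had the large rises given above. nhr-49 introns had 5.03, 6.24 and 7.05 CPM at 2 h and 3.18, 3.67 and 4.18 CPM with ethanol, without overlap (log2 fold change 0.70, SE 0.12, adjusted p = 1.22e-06). nhr-114 introns had 109, 130 and 150 CPM at 2 h and 89.4, 98.1 and 108 CPM with ethanol, which met at 109 and 108 CPM without crossing (log2 fold change 0.40, SE 0.09, adjusted p = 6.88e-05). Taken per host gene count, the log2 fold change of nhr-114 introns was 0.17 (adjusted p = 0.0629), so that the call ended. nhr-76 introns rose by 0.32 (adjusted p = 0.0205), a call lost without batch V or VIII and per host gene count.

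**Figure D4:**
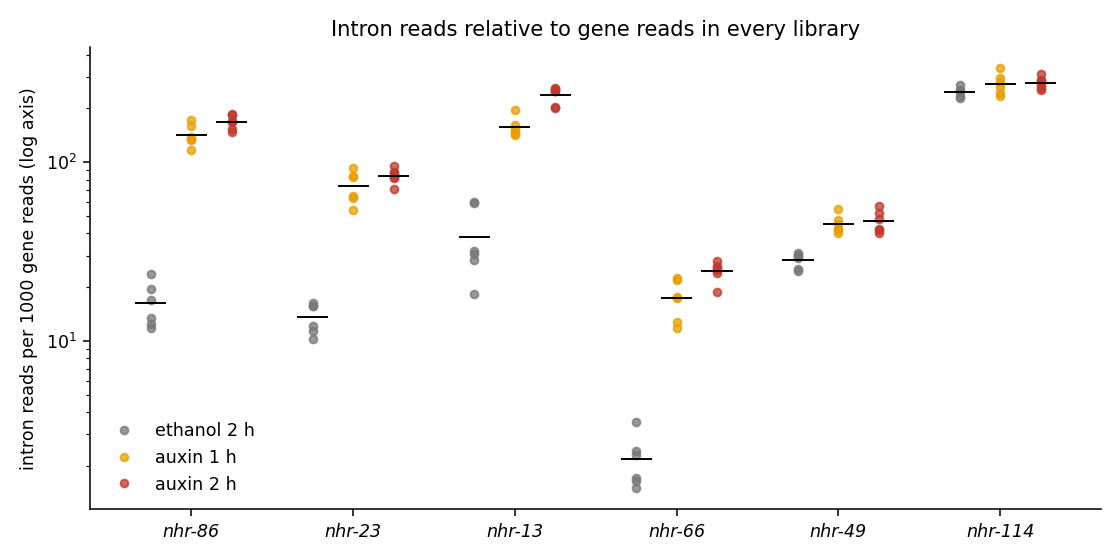
Intron reads per 1000 gene reads of the named nhr genes, for ethanol, auxin 1 h and auxin 2 h; each point is 1 library and each bar the mean of 6. nhr-86 has 16.3 with ethanol, 143 at 1 h and 168 at 2 h, while nhr-114 has 249, 276 and 279.

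Single introns showed where these reads lay. Of the 1500 intervals of members, 1491 coincide with introns in Ensembl 115 gene models of WBcel235, and 39 intervals of 22 members passed the filter. Of the 39, 12 passed the minimum in all 6 ethanol libraries, as did 2098 of all 15224 intervals tested. Most of both sets thus passed through their auxin counts, which favours rises, and the counts are a description. At 2 h, 18 of the 39 rose and none fell, beside 85.1% higher and 1.37% lower among all 15224. At 1 h, 14 rose and none fell, beside 83.2% higher and 0.926% lower. With the batch block 15 were called at 1 h and 19 at 2 h, beside 85% and 87.4%. The median log2 fold change at 2 h was 0.50 over the 39 and 3.34 over all intervals tested. With no filter it was 0.48 over 1077 member intervals and 1.15 over all 82049.

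In nhr-114, 1 intron held most of the intron reads: intron 5 of 6, 52 bases at chrV:4188731-4188782 on the forward strand, took 83.5% of them. It had 1647 to 2222 reads with ethanol, 1587 to 2919 at 1 h and 1995 to 2627 at 2 h, with overlap between groups, and a log2 fold change of 0.16 at 1 h (adjusted p = 0.105, or 0.0192 with the block) and 0.44 at 2 h (adjusted p = 1.51e-05). This equals 204 reads per 1000 gene reads with ethanol, 231 at 1 h and 236 at 2 h. Y45G5AM.9 overlaps nhr-114 on the opposite strand. Without that interval, an alternative chosen after seeing the data, the remaining nhr-114 introns had 15.6, 20.2 and 24.1 CPM at 2 h and 15.2, 17.8 and 19 CPM with ethanol, a ratio of means of 1.15 (two-sided exact permutation test over all divisions of the 12 libraries, p = 0.0628). Taken within batches, it was higher at 2 h in 5 of 6, with a two-sided exact sign-flip p of 0.0938.

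In nhr-86, intron 4 of 5, 813 bases at chrV:2062518-2063330 on the reverse strand, had 3 to 8 reads with ethanol, 33 to 52 at 1 h and 34 to 57 at 2 h. The groups were far apart, with log2 fold changes of 2.95 at 1 h and 3.10 at 2 h. In nhr-23 the 44-base intron 6 of 8 at chrI:7219861-7219904 had at most 1 read with ethanol, 12 to 24 at 1 h and 8 to 22 at 2 h. Against the floor of 3 reads per library it was at least 5.53-fold higher at 1 h and at least 5.49-fold higher at 2 h.

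nhr-49 differed between its introns. Intron 4 held 75.4% of its intron reads, with 79 to 100 reads at 2 h and 63 to 103 with ethanol, and a log2 fold change of 0.22 (adjusted p = 0.119), while at 1 h it rose by 0.35 (adjusted p = 0.011). Intron 2 of 5, at chrI:9872054-9872693, had 0 to 3 reads with ethanol, 6 to 24 at 1 h and 13 to 17 at 2 h, which is at least 4.74-fold higher at 1 h and at least 5.42-fold higher at 2 h. In nhr-66, intron 1 of 7 at chrIV:8229069-8229248 on the reverse strand had 8 to 17 reads at 2 h and 0 to 3 with ethanol, or at least 3.57-fold higher. In nhr-13, the 2132-base intron 7 of 9 at chrV:2194039-2196170 had 5 to 19 reads at 2 h and 1 to 10 with ethanol, with some overlap (log2 fold change 1.47).

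Gene counts and introns could be set side by side in the 51 members tested in both. At 2 h, 10 were called in both, 20 in introns alone, 7 in the gene count alone and 14 in neither. Of the 15 members whose introns rose more than 2-fold in the fit, 6 fell in the gene count (nhr-2, nhr-13, nhr-23, nhr-66, nhr-71 and nhr-274), or 40%. None of the 15 rose, and their median gene log2 fold change was -0.16. Of the 21 whose introns were not called, 7 rose in the gene count and none fell, or 33.3% and 0%, with a median of 0.21. Among all genes, 41.6% of the 4102 with introns more than 2-fold higher fell in the gene count, close to the share of the members. Of those 4102, 7.09% rose, and their median was -0.12. Of the 1606 genes whose introns were not called or were lower, 14.6% fell. In that second set of genes 29.5% rose, with a median of 0.15, close to the share and median of the members. At 1 h, 3 of 12 members with introns more than 2-fold higher fell and none rose, beside 13.3% that fell and 2.09% that rose among all 3921 such genes. The gene and intron tables come from the same libraries, and whether an intron read was also counted for its gene is not given in the sources used here.

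**Figure D5:**
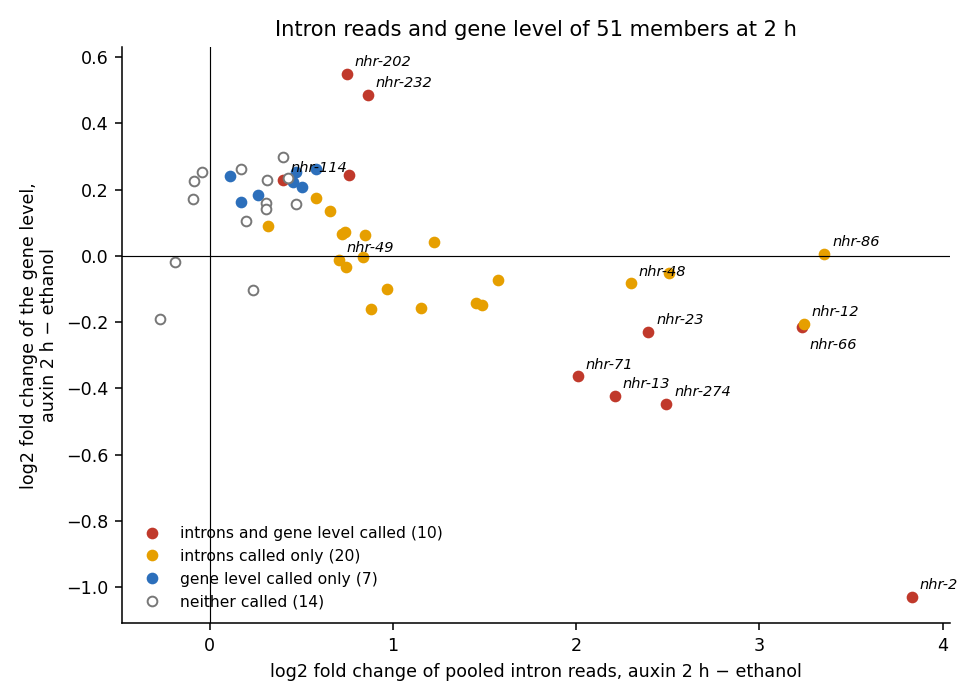
Log2 fold change of the gene count against that of the pooled introns at auxin 2 h over ethanol, for the 51 nhr genes tested in both. nhr-66, with an intron log2 fold change of 3.23, lies at -0.22 on the gene axis, and nhr-86, at 3.35, lies at 0.01; the intron value of nhr-2 is a fitted one against ethanol libraries under the floor of 3 reads.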

How the data were processed

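The authors deposited read counts per protein-coding gene and per intron interval, per the file headers; values were whole numbers. Per the labels, poly-A RNA was sequenced from stranded libraries, and the submitters' processing notes name Trimmomatic, cutadapt, STAR, SAMtools, Picard, featureCounts, limma and edgeR; versions, settings and the build are not given in the sources used here. No column lacked a sample (0 of them).

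Gene counts were fitted with edgeR 4.0.16 (R 4.3.3; group only, TMM, filterByExpr with a minimum count of 10, all 18 libraries), with p-values adjusted over all features tested. Intron counts, summed per host gene and singly, took their library sizes and scaling from the gene counts. Standard errors were derived from the F statistic as the absolute log2 fold change over its root. CPM is the count scaled to the TMM-adjusted library size; the floor is 3 counts per library, 0.0985 to 0.164 CPM, and covers counting error only. DESeq2 1.42.0 was an alternative, with library sizes alone, no filter, 2 groups only, a host gene offset, TMM on introns, each batch left out, and the batch as a block. The labels name the batches. Libraries of 1 batch tended to deviate together, with correlations of 0.146 to 0.674 over 18 pairs. Over 90 pairs from different batches the correlations were -0.522 to 0.386, so the ranges overlapped. The labels do not say whether libraries came from separate cultures, so p-values measure the spread between these samples. Scripts were tested on simulated data.

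Genes named were the 12 largest called rises and falls at 2 h, the 6 largest otherwise, the 10 highest per length, the 10 largest intron rises, the interval with the largest change in each, and role lists. Members and lists were chosen with earlier results of these data known. gei-3, the run around nhr-201, nhr-114 without 1 interval and nhr-74 were taken up after values were seen.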

Additional observations from a re-analysis of the deposited data

Results flagged for a closer look

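Single libraries stood far from the other 5 of their group in 12 of 186 groups examined, by Dixon's criterion, where chance gives about 1 in 20. Batch X supplied 7 of these. In the 2 h group of batch X, nhr-6 was at 3.17 CPM (others 1.32 to 1.57), nhr-10 at 30.9 CPM (others 24.0 to 25.5), nhr-67 at 1.06 CPM (others 0.5 to 0.685) and nhr-25 at 1.63 CPM (others 2.41 to 2.64). In the ethanol group of batch X, nhr-25 was at 1.80 CPM (others 2.40 to 2.74) and nhr-57 at 10.2 CPM (others 6.26 to 7.48). In the 1 h group of batch X, nhr-85 was at 5.88 CPM (others 3.89 to 4.27).

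In other batches, nhr-57 was at 6.63 CPM at 2 h in batch V (others 8.34 to 9.35) and nhr-45 at 25.8 CPM at 2 h in batch VIII (others 22.0 to 23.3). At 1 h, nhr-46 was at 45.2 CPM in batch I (others 39.1 to 40.8) and nhr-49 at 117 CPM in batch II (others 130 to 138). The pooled introns of nhr-49 were at 7.5 CPM at 1 h in batch VIII (others 5.42 to 6.01).

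The effect of auxin differed between 2 h and 1 h in 12 members, by the edgeR test of 2 h against 1 h. It was higher at 2 h for nhr-57 (log2 0.49), nhr-232 (0.48), nhr-7 (0.44), nhr-18 (0.33), nhr-45 (0.30), nhr-1 (0.28), nhr-114 (0.24) and nhr-8 (0.22). It was lower at 2 h for nhr-2 (-0.77), nhr-168 (-0.51), nhr-13 (-0.37) and nhr-181 (-0.36).

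The 31 intron intervals shared by gei-3 and nhr-27, which entered no comparison, summed to a mean of 2.08 CPM at 2 h (1.86 to 2.3) and 1.51 CPM with ethanol (1.01 to 1.81).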

How the results depend on the processing

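With the batch as a replicate block, called members numbered 37 at 1 h, 83 at 2 h and 35 at 2 h against 1 h in gene counts; it ended no call of these. Pooled introns gave 19, 32 and 13 calls and single introns 15 and 19. Leaving out 1 batch at a time gave 7 to 18, 25 to 50 and 3 to 10 gene calls, 15 to 21, 25 to 31 and 5 to 8 pooled intron calls, and 11 to 16 and 15 to 20 single intron calls. With no filter, 71 and 99 of 1077 single introns of members were called at 1 h and 2 h, beside 23803 and 26110 of all 82049. TMM factors from the introns, which shift the median of all of them, gave 47, 43 and 1 pooled calls and 34 and 35 single intron calls, mostly lower. Over all features these factors gave 5683, 5776 and 1303 calls among 6771 host genes and 11904 and 12208 among 15224 introns. They reversed the pooled log2 fold changes of nhr-114 (-1.36 at 1 h and -1.38 at 2 h), nhr-49 (-0.82 and -1.07) and nhr-76 (-1.30 and -1.45), and the single introns of nhr-114 (-1.94 and -2.01), nhr-13 (-0.69 and -0.95) and nhr-76 (-1.86 and -1.94). Other named results kept direction and side of the threshold in 86.1% of gene, 95.3% of pooled and 92.9% of single intron refits. They lost a call in 11.5%, 4.21% and 5.36% of these refits. The refits include named results not called in the main fit, which had no call to lose. The shares of calls lost are therefore higher among called results alone. In some refits without a batch, single introns of nhr-66 and nhr-13 passed no filter. Low counts limit most members: 87 of 268 were not tested. The cause of these changes was not tested.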

Other observations

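In nhr-74, intron 5 of 8 (1087 bases at chrI:11430274-11431360) held 98.6% of the intron reads of the gene. It had 101 to 151 reads per library in batches I, II and V and 30 to 91 in batches VII, VIII and X. nhr-74 had 1238 intron reads per 1000 gene reads with ethanol, 1337 at 1 h and 1393 at 2 h.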
